A study of Homo sapiens and Mus musculus with 7 samples.

Results

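HeyA8 is a human ovarian cancer cell line, and it was represented here by 3 of the 7 arrays of the study: cells whose FAS was stably knocked down with the hairpin shRNA4, cells stably expressing the FAS hairpin shRNA6, and control cells carrying PLKO, the lentiviral vector used to express such hairpins. Genes were chosen for the comparison when their brightest probe set had a signal above 400 on at least 1 of these 3 arrays, which kept 7656 of 19775 genes and 14123 of 54613 probe sets. Of these, 14 genes were at least 1.5-fold above the control with both hairpins (0.183% of the genes kept) and 40 were at least 1.5-fold below it with both (0.522%). At least 2-fold above with both was 1 gene (0.0131%), and at least 2-fold below with both were 9 (0.118%).

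The study set human cancer lines and mouse livers with reduced or absent Fas beside controls, on 1 Affymetrix array of total RNA per sample. The labels call the knockdown lines both knock-down and knock-out, and they do not say whether each line is 1 clone or a pool of transduced cells. No FAS allele, drug or ligand treatment is named in the labels for any HeyA8 group. A pair of HepG2 arrays, from a human liver cancer line with shRNA6 and with PLKO, did not enter the choice of genes and is used for comparison.

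Fas, also called CD95, is a death receptor of the tumour necrosis factor receptor family. When Fas ligand clusters it on the cell surface, the adaptor FADD and the initiator caspase-8 are recruited to its death domain and apoptosis can follow. In many tumour cells the receptor does not kill but can signal through mitogen-activated protein kinases and NF-kB, and ovarian cancer lines are among those in which stable loss of Fas has been studied for this reason.

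Each group was 1 array and the control array was common to both hairpins, so no difference below has a replicate check, and any fault of the control array would appear in both ratios alike. Signals are linear MAS5 intensities. A log2 ratio below is log2 of the knockdown signal plus 12.6 over the control signal plus 12.6, which understates the differences of dim genes, and a percentage of control is the plain ratio of signals. In bulk RNA, fewer cells of a type and less RNA per cell cannot be told apart. The 3 arrays were alike as wholes, with medians between 58.0 and 61.1 and between 13217 and 13477 probe sets above 400. HeyA8 arrays were rich in mesenchymal markers, of which 11 of 12 were above 400, with VIM at 22006 in the control, 27515 under shRNA4 and 23625 under shRNA6. Of 10 Müllerian and ovarian markers 4 were above 400, PAX8, WT1, MECOM and FOLR1, and MUC16 was at 2.99, 4.66 and 3.81. Of 14 epithelial markers 5 were above 400, among them the keratins KRT7, KRT8 and KRT18, but CDH1 was at 4.95, 13.4 and 2.48. None of 17 hepatocyte markers (0) and none of 11 immune markers (0) was above 400. The summed fibroblast markers were at 2420 in the control, 3566 under shRNA4 and 2011 under shRNA6. Of the 11, 2 were above 400, FAP (1002, 1017 and 785) and ACTA2 (997, 2281 and 940), and COL3A1 and POSTN were at no more than 34.2. The higher sum under shRNA4 was carried by ACTA2. That sum lay on opposite sides of the control in the knockdown arrays, and its part in the results was not tested.

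FAS, the targeted gene on chromosome 10, was lower on both knockdown arrays. Its brightest probe set kept 56.3% of the control signal with shRNA4 and 40.7% with shRNA6, from 2104 in the control to 1184 and 856. The other 3 FAS probe sets above 400 were below the control on both arrays too, so that over all 4 the log2 ratios ran from -1.24 to -0.82 with shRNA4 and from -1.99 to -1.29 with shRNA6. By the smaller of its ratios FAS was not the most reduced gene: 15 other genes were further below the control with both hairpins. On the shRNA6 array the 4 FAS probe sets stood at 856, 506, 489 and 215, so 3 of them were still above 400.

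Most genes differed little. The middle 95% of genes lay between log2 ratios of -0.61 and 0.53 with shRNA4 and between -0.51 and 0.40 with shRNA6. The difference between the hairpin arrays, which is the only spread the design gives, lay between -0.58 and 0.55 for the same share, so a 1.5-fold ratio (0.585) is about the edge of what those arrays differed by. With any size of difference 2918 genes (38.1%) were above the control with both hairpins, 2138 (27.9%) were below it with both, and 2600 had opposite signs. With shRNA4, whatever shRNA6 gave, 129 genes (1.68%) were higher by at least 1.5-fold and 212 (2.77%) were lower by as much. With shRNA6 the counts were 53 (0.692%) and 118 (1.54%). A total of 3 genes passed 1.5-fold in opposite directions. Counted over probe sets, 26 (0.184%) were higher with both by at least 1.5-fold and 93 (0.659%) were lower.

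**Figure D1:**
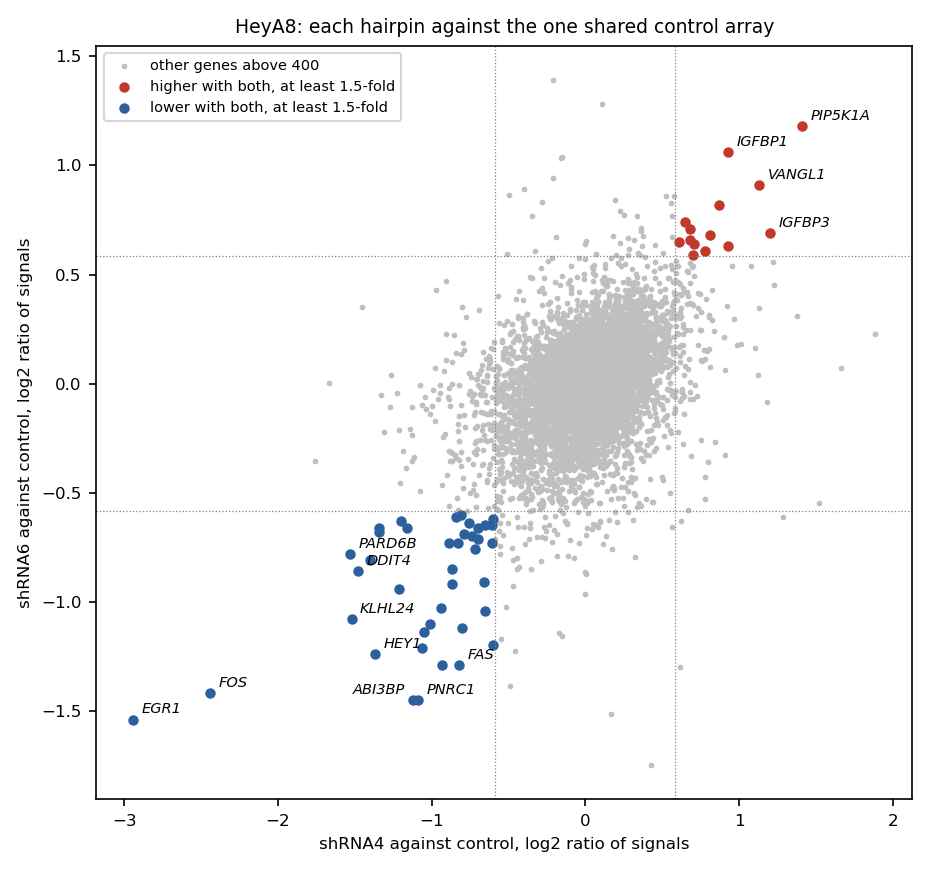
Log2 ratio of each of 7656 genes in HeyA8 with shRNA4 (horizontal axis) and with shRNA6 (vertical axis) against the one control array, with dotted lines at 1.5-fold (log2 0.585). The 40 genes lower with both (blue) reach further from 0 than the 14 higher with both (red), and EGR1 and FOS lie furthest out, at -2.94 and -2.44 with shRNA4. Both axes hold the same control signal, so the slope of the cloud is no sign of a shared response.

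A test over samples was possible only with both hairpins taken as 2 samples of knockdown against the single control, which leaves 1 residual degree of freedom and assumes that the control varies as the knockdown arrays do. By limma with Benjamini-Hochberg adjustment 0 of 54613 probe sets (0.0%) passed an adjusted p of 0.05, and 2399 (4.39%) had an unadjusted p below 0.05. The lowest adjusted p was 0.976, which was also the value of each of the 54 genes. The genes below are therefore described by their signals and were not shown to differ beyond error.

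Balance between higher and lower genes depended on the scaling. With arrays rescaled to equal medians, 26 genes were higher with both by at least 1.5-fold and 30 lower, in place of 14 and 40. All 14 higher genes and 30 of the 40 lower genes were in those lists. Among genes with one sign for both hairpins, the share below the control was 42.3%, and 28.7% with equal medians. Quantile normalization moved these values less, to 17 higher and 36 lower genes and a share of 44.2% below the control.

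By the smaller of both ratios, 3 transcription factors, EGR1, FOS and HEY1, stood first among the lower genes. EGR1, an immediate-early zinc finger factor switched on by growth signals within minutes, kept 12.7% of its control signal with shRNA4 and 34.1% with shRNA6 (2661 in the control against 337 and 906). All 3 of its probe sets lay below the control on both arrays, between -2.94 and -2.32 with shRNA4 and between -1.54 and -1.41 with shRNA6. FOS, an AP-1 subunit of the same early wave, kept 17.6% with shRNA4 and 36.7% with shRNA6 of a control signal of 1214, on its single probe set. Both genes were lower with shRNA4 than with shRNA6, whereas FAS itself was lower with shRNA6. The EGR1 promoter, from 250 bases before to 50 after the transcription start (RefSeq, GRCh38.p14, chr5:138465229-138465528, plus strand), is shown because EGR1 was the most reduced gene and because its start region holds 2 copies of the CArG box, the element bound by serum response factor, in capitals:
EGR1: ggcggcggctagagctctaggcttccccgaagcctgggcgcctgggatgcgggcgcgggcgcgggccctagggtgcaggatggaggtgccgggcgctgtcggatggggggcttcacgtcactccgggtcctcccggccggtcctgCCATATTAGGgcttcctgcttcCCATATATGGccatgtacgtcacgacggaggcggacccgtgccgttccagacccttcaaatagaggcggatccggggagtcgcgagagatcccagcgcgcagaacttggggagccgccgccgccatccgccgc

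A pair of Notch pathway genes followed. HEY1, a repressor that Notch induces, stood at 2139 in the control, 821 under shRNA4 and 899 under shRNA6, and its second probe set at 31.9% and 39.4% of control. MAML3, a coactivator that joins the Notch transcription complex, stood at 422, 197 and 184, so that only the control array was above 400, and its other probe sets were dim. For both genes the knockdown arrays were close to each other and far from the control.

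Further regulators of transcription were lower by smaller amounts. BHLHE40, a clock-linked repressor, kept 57.3% of its control signal with shRNA4 and 45.9% with shRNA6, from 2388 in the control. CREBRF, which restrains the stress factor CREB3, kept 53.9% and 51.8%, and its other bright probe set gave -0.86 and -0.64. KDM5B, a demethylase of histone H3, kept 54.7% and 64.6% of a control signal of 508. Its other 2 bright probe sets were lower with both hairpins as well, 1 of them past 1.5-fold with both.

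Of the 40 lower genes, 5 belong to a list of genes linked to growth arrest, many of them targets of FOXO factors or glucocorticoids. The whole list, not all of which was lower, is described with the other lists. PNRC1, a nuclear receptor coactivator, stood at 1902 in the control, 889 under shRNA4 and 689 under shRNA6. DDIT4, an inhibitor of the growth kinase mTORC1, stood at 1665, 587 and 911. CCNG2, a cyclin associated with cell cycle arrest, stood at 1940, 757 and 1210, and its other bright probe set gave -1.09 and -0.87. Of these, DDIT4 and CCNG2 were lower with shRNA4 and PNRC1 with shRNA6. ARRDC3, an arrestin-related protein that promotes the turnover of cell surface receptors, stood at 634, 276 and 395. KLHL24, a substrate adaptor of a ubiquitin ligase, stood at 601, 202 and 278. KLHL24 probe sets disagreed: another above 400 gave -1.60 and -1.10, but the cross-hybridising one gave 0.08 and -0.73. The KLHL24 promoter (RefSeq, GRCh38.p14, chr3:183635373-183635672, plus strand) is shown as the only one found with an AP-1 motif among the 15 genes lowest by the smaller ratio. That motif is the element FOS-containing dimers bind, here in capitals and read on the opposite strand as TGACTCA:
KLHL24: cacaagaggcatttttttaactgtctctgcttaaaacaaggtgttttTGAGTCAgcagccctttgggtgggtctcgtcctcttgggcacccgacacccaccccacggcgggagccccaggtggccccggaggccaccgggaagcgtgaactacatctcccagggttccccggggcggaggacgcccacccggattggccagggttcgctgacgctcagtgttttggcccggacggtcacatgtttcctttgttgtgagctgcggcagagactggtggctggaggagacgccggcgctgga

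The 40 lower genes held secreted and matrix proteins as well. GREM1, which binds and blocks bone morphogenetic proteins outside the cell, stood at 1384 in the control, 657 under shRNA4 and 593 under shRNA6, and its second probe set kept 50.4% and 55.8%. ABI3BP, an extracellular matrix protein, stood at 681, 306 and 242. THBS1, the matrix glycoprotein thrombospondin, stood at 768, 397 and 307. Only the control arrays of ABI3BP and THBS1 were above 400, and none of their other probe sets was. THSD4, a secreted protein with thrombospondin repeats, kept 65.6% and 64.8% of a control signal of 2113, and its dimmer bright probe set gave -0.33 and -0.26.

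The 40 lower genes also held receptors and adhesion proteins. TNFRSF11B, osteoprotegerin, a secreted decoy receptor of the same family as Fas that binds RANK ligand and TRAIL, stood at 4055, 2565 and 2150. Its second probe set gave -0.06 with shRNA4 and -0.86 with shRNA6, so it was lower on both probe sets with shRNA6 but hardly different on one with shRNA4. IL31RA, a cytokine receptor subunit, kept 60.5% and 58.8%, and LIFR, the receptor of leukaemia inhibitory factor, 55.9% and 65.2%. CLEC2B, a lectin-like ligand of natural killer cell receptors, kept 58.8% and 64.0% of a control signal of 2569. DSP, the desmosomal plaque protein desmoplakin, kept 63.3% and 48.2%. ITGA2, the collagen-binding integrin subunit, kept 65.2% and 60.2% on its brightest probe set, while its other probe set stood at 434 in the control, 888 under shRNA4 and 260 under shRNA6. The ITGA2 probe sets thus disagreed in direction for shRNA4.

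Signalling enzymes, adaptors and ion transporters were also among the 40. PTPRR, a tyrosine phosphatase that switches off mitogen-activated protein kinases, stood at 618 in the control, 260 under shRNA4 and 317 under shRNA6, and its second probe set kept 59.1% and 57.8%. DGKD, a kinase that consumes diacylglycerol, kept 53.9% and 55.0% of a control signal of 859. Calcium handling was represented by both an entry channel and a pump. ORAI3, a store-operated calcium channel, kept 54.9% and 59.1%, and ATP2B4, a plasma membrane calcium pump, kept 53.5% and 59.9%. The other bright ATP2B4 probe set kept 69.5% and 80.3%, which is not past 1.5-fold with either hairpin. SH3KBP1, an adaptor in receptor endocytosis, kept 65.1% and 63.3% of a control signal of 2142, and 70.8% and 66.0% on its other bright probe set. PARD6B, a polarity complex scaffold, kept 33.8% with shRNA4 and 57.5% with shRNA6 of a control signal of 998. CYS1, a protein of primary cilia, kept 42.6% and 64.1%, and MLPH, which links organelles to a myosin motor, 38.8% and 62.9%. For PARD6B, CYS1 and MLPH the shRNA4 array was clearly the lower of the pair.

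Metabolic and other genes complete the 40. INSIG1, the endoplasmic reticulum protein that holds back sterol synthesis, was among the brightest at 6640 in the control, 4077 under shRNA4 and 4196 under shRNA6. All 3 INSIG1 probe sets lay between -0.88 and -0.61. DHRS3, which reduces retinaldehyde, kept 51.1% and 47.8% of a control signal of 599. NDRG1, a stress gene induced by low oxygen, kept 63.8% and 63.5% of 3509. ENDOG, a mitochondrial nuclease, kept 58.7% and 60.3% of 427. CRCP, a component of a peptide hormone receptor and of RNA polymerase III, kept 61.3% and 60.7% of 1543. LRATD2, a protein with an LRAT-like domain, kept 49.1% and 46.3% of 1507, and YPEL2 65.0% and 41.7% of 416. The golgin family gene GOLGA8N (57.2% and 61.7%) was measured by a cross-hybridising probe set and has close copies, so its signal can hold theirs. The probe set annotated to the antisense gene HSD11B1-AS1 kept 36.8% and 56.1%. Of all 40 lower genes, 21 were further below the control with shRNA4 and 19 with shRNA6, and of the 14 higher genes 10 were further above it with shRNA4.

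**Figure D2:**
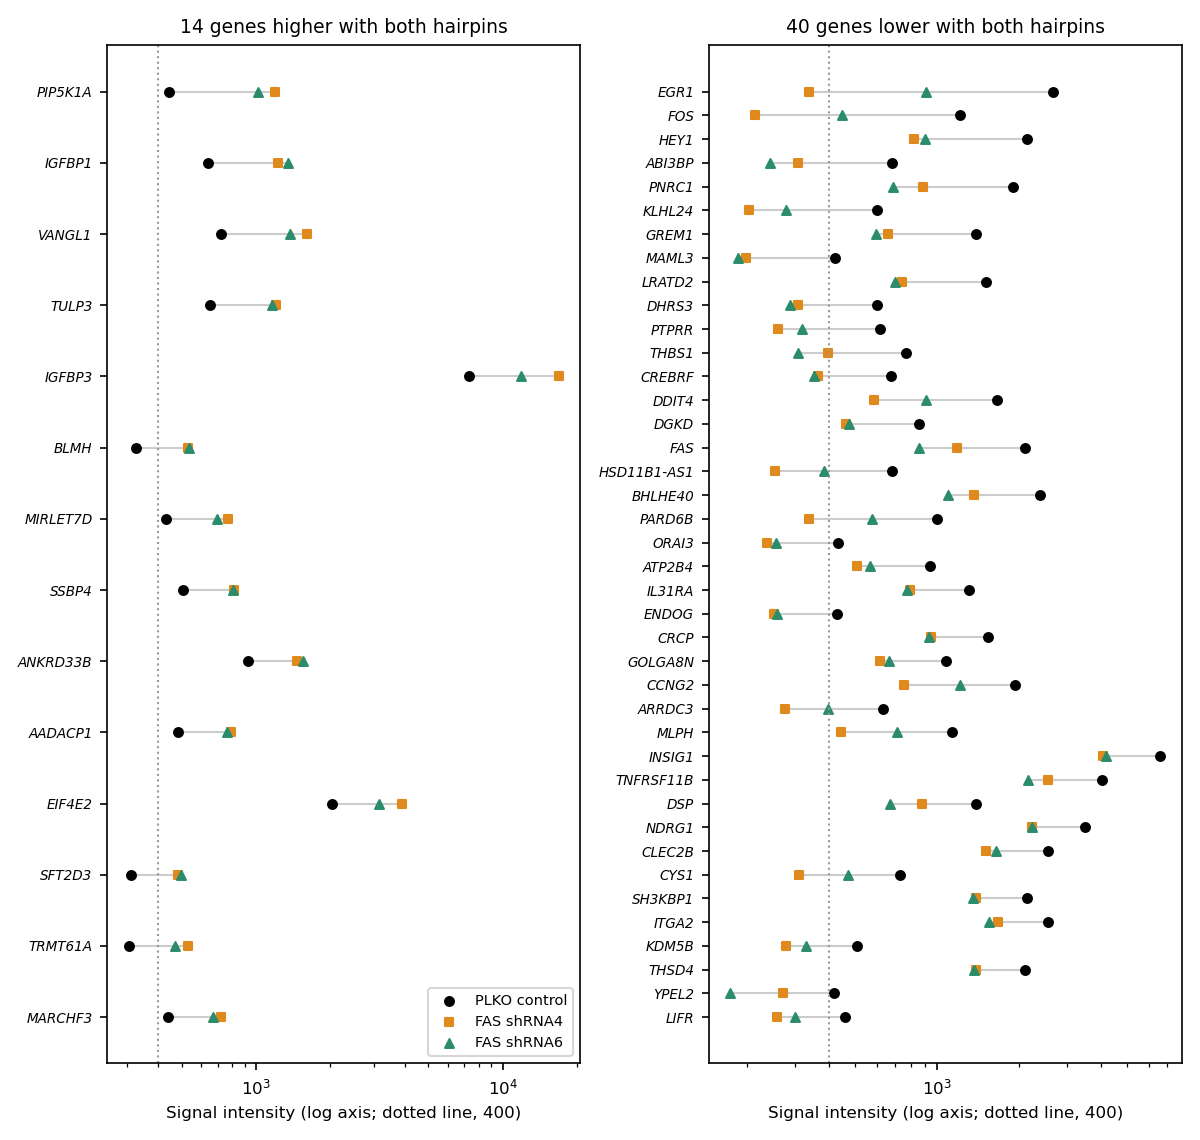
Signal of the 14 genes at least 1.5-fold higher (left) and the 40 lower by as much (right) with both hairpins, on the control array (black circle), the shRNA4 array (orange square) and the shRNA6 array (green triangle), on log axes with a dotted line at 400. Both knockdown arrays lie on one side of the control for each gene, as the choice of genes fixes. EGR1, FOS, PARD6B and MLPH show the shRNA4 signal well below that of shRNA6.

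The higher genes were fewer. PIP5K1A, a kinase that makes the membrane lipid phosphatidylinositol bisphosphate, stood at 441 in the control, 1191 under shRNA4 and 1017 under shRNA6, the largest difference upward. Its other 2 probe sets were dim, at no more than 185 on any HeyA8 array, and gave -0.34 and 0.34 on one and 0.11 and 0.15 on the other. A pair of insulin-like growth factor binding proteins, secreted carriers that control access of these factors to their receptor, was higher. IGFBP3 stood at 7340 in the control, 16926 under shRNA4 and 11837 under shRNA6, and its second probe set reached 243% and 174% of control. IGFBP1 stood at 637, 1225 and 1341. The other listed proteins of this family that were kept were not higher with both hairpins. IGFBP7 was lower with both (-0.56 and -0.78). IGFBP2 (-0.28 and 0.83), IGFBP4 (0.46 and -0.04) and IGFBP6 (-0.51 and 0.29) had opposite signs. IGFBP3 was the brightest of the 14 genes. Of the 4 that had more than 1 bright probe set, it was the one with all of them past 1.5-fold with both hairpins.

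VANGL1 and TULP3 act in cell polarity and in transport into cilia. VANGL1, a core planar polarity protein, stood at 723, 1601 and 1369, but of its other 2 bright probe sets 1 gave 0.26 and 0.02 and the other 0.00 and -0.07. TULP3, an adaptor that carries receptors into primary cilia, stood at 652, 1201 and 1160. Its other probe set was below 400 and reached 162% and 164% of control. The VANGL1 probe set below 400 reached 155% and 140% of control. Probe sets of TULP3 thus pointed the same way, while the other 2 bright ones of VANGL1 stayed between 94.9% and 120% of control.

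RNA-related proteins were a further pair. EIF4E2, a cap-binding protein that represses translation, stood at 2033 in the control, 3895 under shRNA4 and 3159 under shRNA6, with its 3 bright probe sets between 0.52 and 0.93 and between 0.47 and 0.65. TRMT61A, the catalytic subunit of a transfer RNA methyltransferase, stood at 304, 529 and 469, while its other probe sets lay between 98.2% and 105% of control. MIRLET7D is the annotated name of a probe set that stood at 430, 766 and 696. Arrays of this type do not measure mature microRNAs, so this is a value of a longer transcript, and whether that is the MIRLET7D precursor or a neighbour is not known. SSBP4, a single-stranded DNA-binding protein, reached 162% and 160% of control on one probe set and 122% and 105% on its other bright one, both of them cross-hybridising.

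The remaining higher genes had 1 bright probe set each. BLMH, the cysteine protease bleomycin hydrolase, stood at 324, 527 and 536. MARCHF3, a membrane-bound ubiquitin ligase, stood at 440, 721 and 671. SFT2D3, a protein of vesicle transport, reached 155% and 159%, ANKRD33B 158% and 168%, and the pseudogene AADACP1, whose signal can hold that of its parent gene, 165% and 157%. BLMH, SFT2D3 and TRMT61A were at or below 400 in the control and entered through the knockdown arrays alone, as did 288 genes of all those kept. Conversely, 14 of the 40 lower genes entered through the control alone, as did 126 of all genes. For these 17 genes the filter and the direction are not independent. The BLMH promoter (RefSeq, GRCh38.p14, chr17:30291895-30292194, minus strand) is shown as the only one of the higher genes with an AP-1 motif, in capitals:
BLMH: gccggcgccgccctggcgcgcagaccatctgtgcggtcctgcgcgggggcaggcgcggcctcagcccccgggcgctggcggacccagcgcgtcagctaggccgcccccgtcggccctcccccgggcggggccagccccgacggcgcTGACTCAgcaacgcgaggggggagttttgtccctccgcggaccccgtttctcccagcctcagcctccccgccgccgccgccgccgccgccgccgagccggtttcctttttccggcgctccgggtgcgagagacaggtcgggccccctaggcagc

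The median control signal was 492 for the 14 higher genes, 1170 for the 40 lower genes and 1540 for all genes kept, a comparison that the direction of each group and the filter bear on. At the edge of the size threshold, MARCHF3 was just inside (0.695 and 0.594) and ARPC3, an actin-nucleating subunit, just outside (0.578 and 0.86). On the lower side LIFR was just inside (-0.809 and -0.596) and MPST, a sulfurtransferase, just outside (-0.585 and -0.712). At the edge of the signal filter, KIF1C, a kinesin motor, was just inside (0.13 and -0.42) and ODAD2, a protein of motile cilia, just outside (0.39 and 0.26).

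Where a gene has several bright probe sets they give a second reading of the same arrays, though not a replicate. Of 3096 genes with at least 2 probe sets above 400, 534 had all of them higher and 389 all of them lower with both hairpins. All were past 1.5-fold for 1 higher gene, IGFBP3, and for 8 lower genes, EGR1, HEY1, GREM1, FAS, PTPRR, CCNG2, CREBRF and INSIG1. Ranked by the smallest ratio over all bright probe sets and both hairpins, the higher genes after IGFBP3 were CMTM3, a MARVEL domain protein (0.50 to 0.68 with shRNA4 and 0.55 to 0.71 with shRNA6), EIF4E2, RABL6, a GTPase-like protein (0.49 to 0.85 and 0.42 to 0.94), and the cell cycle kinase CDK6 (0.96 to 1.26 and 0.34 to 0.47). MGLL, which hydrolyses monoacylglycerols, gave 0.56 to 0.66 and 0.32 to 0.42. MYDGF, ENC1, RPP14 and COA7 followed, with no ratio above 0.56. Of the 14 higher genes 4 had another bright probe set, and in 3 all of these had the direction of the first with both hairpins. Of the 40 lower genes 15 had another, and in 13 all of them had the direction of the first.

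Gene lists were read by counts beside those of all genes kept, for which 38.1% were higher and 27.9% lower with both hairpins and 0.522% were at least 1.5-fold lower. In all 40 lists 769 of 1187 listed genes were kept, 18 of the 40 lower and 5 of the 14 higher genes were listed, and 24 lists had no member past 1.5-fold with both. Where a list is said to be led by a gene, the order is by the smaller of both ratios. Members of a list were not tested as a set, and the shared control touches every count. The lists were drawn up with earlier results of these data known, so a high share past 1.5-fold in a list is no independent support.

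The list of FOXO and glucocorticoid-type genes of growth arrest had the most members past the threshold. Of 26 kept, 15 (57.7%) were lower and 5 (19.2%) higher with both hairpins, and 5 were at least 1.5-fold lower: PNRC1, KLHL24, DDIT4, CCNG2 and ARRDC3. Its medians were -0.18 with shRNA4 and -0.37 with shRNA6, beside 0.04 and 0.02 for all genes. The count of 15 was the same under each other pseudocount and scaling tried, and the count of 5 became 4 with a pseudocount of 100, where ARRDC3 with shRNA6 was at -0.57. These settings do not cover the signal filter. KLHL24 (601 in the control, 202 under shRNA4 and 278 under shRNA6) and ARRDC3 (634, 276 and 395) were above 400 on the control array alone. For both, entry through the filter and direction are not independent. Not every member was lower. FKBP5, a chaperone induced by glucocorticoids, gave 0.26 and 0.25, and CDKN1A, the cell cycle inhibitor p21, gave 0.38 and -0.31.

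Notch genes were few but nearly all below the control. Of 7 kept, 6 were lower with both hairpins and HEY1 and MAML3 were at least 1.5-fold lower, with medians of -0.38 and -0.32. The receptor NOTCH2 gave -0.57 and -0.32, and RBPJ, the DNA-binding partner of the activated receptor, -0.38 and -0.30. MAML1 was the exception at 0.11 and -0.05. The counts of 6 and 2 were the same under each other pseudocount and scaling tried, which does not cover the signal filter. MAML3 was above 400 on the control array alone (422, against 197 under shRNA4 and 184 under shRNA6). Its entry through the filter and its direction are therefore not independent.

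Cholesterol synthesis and sterol handling had 14 of 19 members (73.7%) lower with both, with medians of -0.23 and -0.14. INSIG1 was its only member past 1.5-fold. STARD4, which carries cholesterol between membranes, gave -0.47 and -0.41, HMGCS1, an early enzyme of the route, -0.39 and -0.50, and NPC1, the lysosomal cholesterol exporter, -0.62 and -0.37. With equal medians 11 were lower and INSIG1 was no longer past 1.5-fold. SCAP, the escort of the sterol-sensing factor SREBP, was higher, at 0.35 and 0.18. In HepG2 with shRNA6 the list had a median of 0.22, beside -0.02 for all genes kept, on the other side of 0 from both HeyA8 medians. That difference between the cell lines was not tested.

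Signalling lists were mixed. Feedback inhibitors and outputs of ERK kinases had 8 of 14 members (57.1%) lower and none (0) past 1.5-fold with both, with SPRY2 (-0.80 and -0.48) and DUSP6 (-0.60 and -0.30), which restrain this pathway, first by the smaller ratio. HMGA2, an output of the pathway, was higher, at 1.02 and 0.18. Immediate-early and AP-1 factors had 7 of 16 lower and 5 higher, with medians of 0.01 and -0.03. EGR1 and FOS were thus 2 members far from a list that was otherwise centred near 0, and with equal medians 4 were lower and 6 higher. The NF-kB target and cytokine list had 6 of 10 members lower, among them TNFAIP3, a feedback inhibitor of NF-kB (-0.33 and -0.35), and IL18 (-1.76 and -0.35). Its 3 chemokines were past 1.5-fold higher with shRNA6: CXCL1 gave 0.22 and 0.79, CXCL3 -0.15 and 1.04, and CXCL8 -0.40 and 0.89. Of 8 interferon-stimulated genes above 400, 3 were lower and none (0) higher with both, with HERC5 (-0.41 and -0.45) and SP110 (-0.46 and -0.39) first by the smaller ratio. The core circadian clock had 6 of 10 lower, with BHLHE40 past 1.5-fold.

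The Fas and TRAIL death receptor list had 4 of 14 members lower and 4 higher, with FAS its only member past 1.5-fold. The caspase substrate BID gave 0.17 and 0.04, the TRAIL receptor TNFRSF10A 0.22 and 0.11, and the effector caspase CASP6 -0.14 and -0.52. In the BCL2 family and inhibitors of apoptosis 7 of 17 were higher and 2 lower, with BIRC5, survivin (0.21 and 0.18), and DIABLO (0.24 and 0.18) first by the smaller ratio. The list of p53 targets had equal counts of 4 higher and 4 lower of 21, with medians on opposite sides of 0 (0.23 and -0.22).

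Some lists leaned upward by small amounts. DNA replication and S phase genes were higher with both hairpins in 22 of 34 (64.7%) and lower in 2, led by CCNE2, a cyclin of S phase entry (0.34 and 0.33), and RRM2, a ribonucleotide reductase subunit (0.31 and 0.31). Proteasome subunits were higher in 23 of 30 (76.7%) and lower in 1. Antioxidant genes and metallothioneins were higher in 18 of 24, led by GCLM, a subunit of the rate-limiting enzyme of glutathione synthesis (0.66 and 0.52). After quantile normalization these 3 lists had 20, 19 and 12 higher and 3, 5 and 5 lower. Cytosolic ribosomal proteins were higher in 29 of 33 (87.9%), with medians of 0.20 and 0.08, but after quantile normalization 11 were higher and 13 lower, so their direction depended on how the brightest signals were scaled. Mitosis and cytokinesis genes had 14 of 34 higher (41.2%, near the share of all genes) and 3 lower, with CDC25A, a cell cycle phosphatase, at 0.56 and 0.54. After quantile normalization 12 were higher and 8 lower.

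Other lists held 1 or 2 members past 1.5-fold with both. In the growth factor and insulin-like growth factor list 5 of 23 were higher, IGFBP1 and IGFBP3 past 1.5-fold, and 10 were lower. The Wnt, polarity and cilia list had 6 of 17 higher, VANGL1 and TULP3 past 1.5-fold, and 6 lower. Matrix genes were even, with 5 of 25 in each direction and ABI3BP and THBS1 past 1.5-fold lower. Single members were past 1.5-fold in the lists of integrins (ITGA2), TGF-beta and BMP (GREM1), retinoid metabolism (DHRS3), YAP and TEAD (THBS1), hypoxia and glycolysis (NDRG1, lost with equal medians) and phosphoinositide kinases (PIP5K1A, higher). The let-7 target list had 4 of 14 higher and 5 lower, with DICER1 at 0.39 and 0.32 and BACH1 at -0.27 and -0.30. Since the MIRLET7D probe set does not measure mature let-7, a link between it and these counts was not tested.

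**Figure D3:**
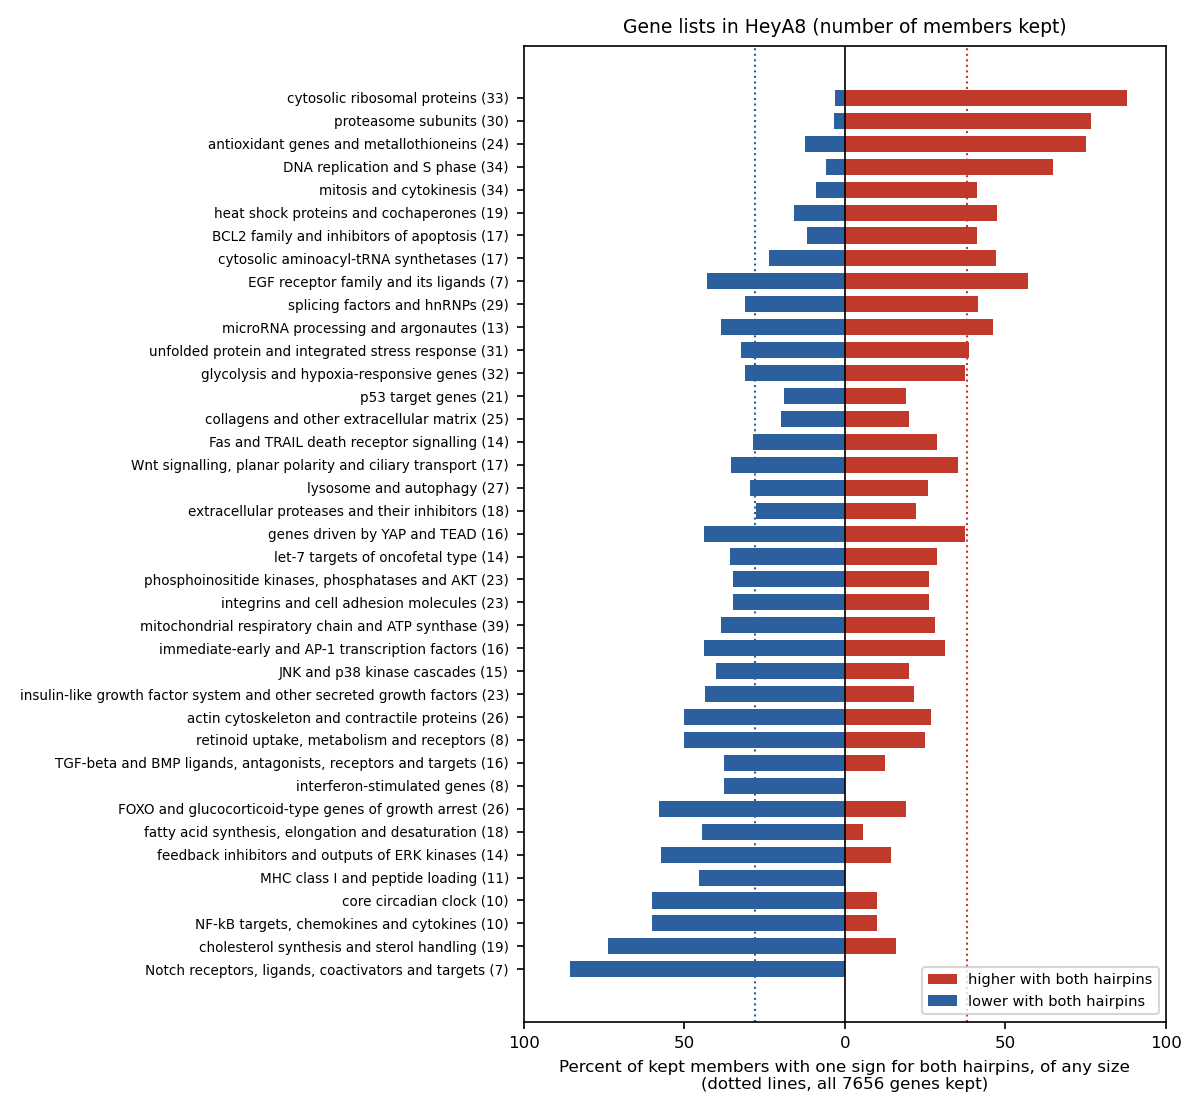
Percent of the kept members of each gene list that were higher (red, to the right) or lower (blue, to the left) than the control with both hairpins at any size, for lists with at least 7 members kept, whose number is in brackets. Dotted lines mark all genes kept, 38.1% higher and 27.9% lower. Ribosomal proteins lie at the top with 87.9% higher and Notch genes at the bottom with 85.7% lower.

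Promoter sequences from RefSeq (GRCh38.p14, 250 bases before to 50 after the first listed start) were found for 31 of the 40 lower genes, 10 of the 14 higher genes and 6466 of all genes kept. Motifs were searched as exact letters on both strands, and a match describes these windows only. The AP-1 motif TGACTCA was in 2 of the 31 lower (6.45%) and 1 of the 10 higher, beside 2.68% of all genes kept. The lower genes with it were KLHL24 and HSD11B1-AS1, and the higher gene was BLMH. The CArG box was in 1 lower gene, EGR1 (3.23%), beside 1.08%. The E-box CACGTG was in 5 lower genes (16.1%), CREBRF, BHLHE40, CCNG2, MLPH and INSIG1, and in 2 of the 10 higher genes, PIP5K1A and TRMT61A, beside 713 of 6466. The Notch effector motif GTGGGAA was in 2 lower genes, ABI3BP and SH3KBP1 (6.45%, beside 5.61%), and the EGR motif GCGTGGGCG in THBS1 (3.23%, beside 1.39%). The ETS motif CCGGAAG was in none of the lower genes (0), in 3 of the higher genes, EIF4E2, SFT2D3 and TRMT61A (30.0%), and in 22.1% of all. The cyclic AMP element TGACGTCA was in neither group and in 3.57% of all. Neither of these motifs contains the AP-1 motif. Each of these counts rests on few promoters.

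The HepG2 pair had its own control and did not enter the choice of genes, although its hairpin was shRNA6 as well. Of the 40 genes lower in HeyA8, 23 (57.5%) were below 0 in HepG2 beside 54.4% of all genes kept, and 7 (17.5%) were at least 1.5-fold lower beside 3.27%. At least 1.5-fold higher were 4 of 40, beside 2.36% of all genes, so the shares past 1.5-fold were above those of all genes in both directions, a difference that was not tested. The 7 were FOS, MAML3, THBS1, EGR1, FAS, IL31RA and ABI3BP, of which MAML3, IL31RA and ABI3BP were at no more than 37.6 on either HepG2 array. Of the 22 lower genes above 400 in HepG2, 14 were below 0 (63.6% beside 54.8%), 4 were at least 1.5-fold lower (18.2% beside 1.45%) and 1 was at least 1.5-fold higher (4.55% beside 0.642%). Those 4 were FOS, from 488 to 177, THBS1, from 3316 to 1511, EGR1, from 1464 to 821, and FAS, from 1087 to 631. FAS is counted in the 7 and in the 4 although it is the target of shRNA6 in both cell lines. HEY1 and PNRC1 were at -0.32 and -0.36 in HepG2. The growth arrest genes were split, with DDIT4 at -0.45, CCNG2 at 0.33, ARRDC3 at 0.39 and KLHL24 at 0.44. All of these values lay inside the HepG2 range of the same middle share of genes as in HeyA8, from -0.68 to 0.57. HEY1 (278 in the control and 219 with shRNA6) and KLHL24 (115 and 160) were below 400 there. Other probe sets bright in HeyA8 gave -0.54 for HEY1, -0.27 and -0.22 for KLHL24 and -0.13 for CCNG2, so the signs of KLHL24 and CCNG2 depended on the probe set.

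Genes higher in HeyA8 were split in HepG2. Of the 14, 6 (42.9%) were above 0 beside 45.6% of all genes, 1 (7.14%) was higher by at least 1.5-fold and 1 (7.14%) was lower by as much. The gene past 1.5-fold higher was ANKRD33B, at 17.6 and 46.3 in HepG2. Of the 8 above 400 in HepG2, 2 were above 0. IGFBP1 was bright there, at 12040 in the control and 10565 with shRNA6, and TULP3 stood at 660 and 611. PIP5K1A was at 393 and 262, below its control where both HeyA8 hairpins were above theirs.

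**Figure D4:**
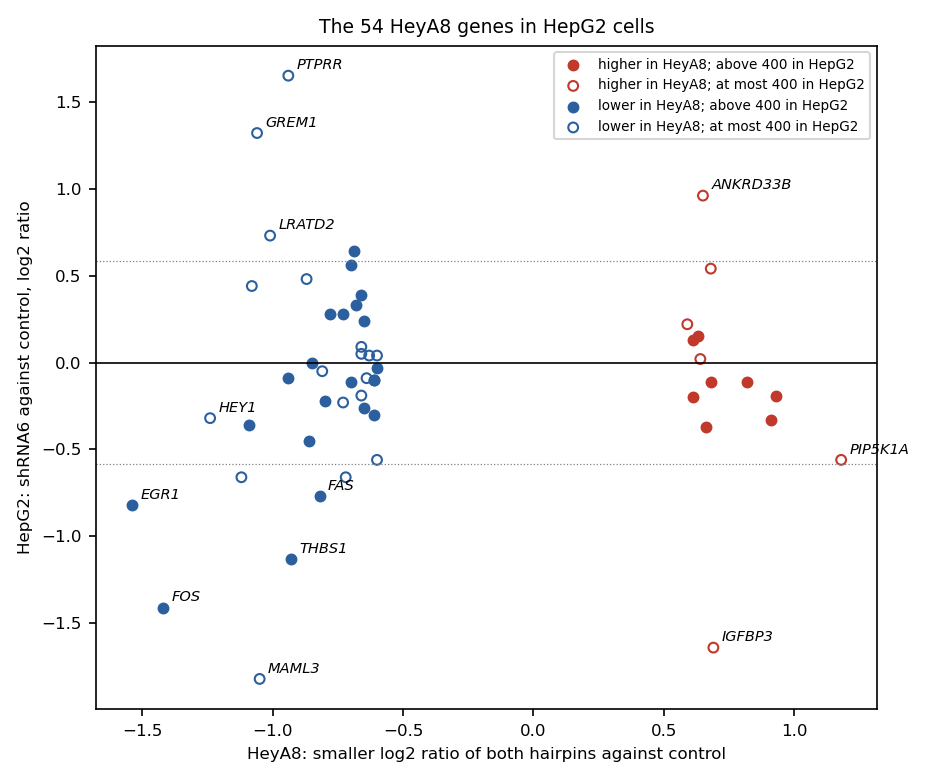
Log2 ratio of shRNA6 against control in HepG2 (vertical axis) for the 54 genes past 1.5-fold with both HeyA8 hairpins, placed by the smaller of their HeyA8 log2 ratios (horizontal axis), with dotted lines at 1.5-fold. Filled symbols are above a signal of 400 on at least 1 HepG2 array. Of the filled blue symbols, FOS, THBS1, EGR1 and FAS lie below the lower line, and the most distant symbols in the other direction, GREM1 and PTPRR, are open.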

How the data were processed

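Total RNA of each sample was measured on 1 Affymetrix array. The authors deposited linear intensities made with MAS5, per the submitters' processing notes, and the sources used here give no MAS5 version. Every human array in the deposited intensities gave the same 2% trimmed mean, 500.1. Control probe sets (62) were left out, and the mouse arrays were not used. Of 54613 probe sets 41091 had 1 gene symbol in the platform annotation, 1801 several and 11721 none, and only the first kind named a gene. Symbols were compared with RefSeq (41037 matched, 0 updated).

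A gene took its brightest probe set over the HeyA8 arrays, with cross-hybridising ones used only where no other existed. The constant 12.6 was the 25th percentile of the human table. limma 3.58.1 in R 4.3.3 was used with a trended prior variance (3.57 prior degrees of freedom). It was also run on simulated data with 200 changed probe sets, and how many of these it recovered is not reported here. With 1 residual degree of freedom, a probe set that did not pass may still differ. For arrays, their number limits the precision: p-values measure only how these samples spread, and that spread may be technical. Other steps used Python 3.11.15, pandas 2.3.3 and numpy 2.4.6.

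Members, gene lists, motifs and rules were chosen with earlier results of these data known. Named were FAS, the 15 genes per direction with the largest smaller ratio, the 10 per direction with the largest smallest ratio over several probe sets, up to 4 members per list past 1.5-fold (or 2 where none passed), genes at the limits and genes past 1.5-fold in HepG2. The other genes past 1.5-fold with both hairpins were named so that every one is accounted for, and some further list members (FKBP5, CDKN1A, NOTCH2, RBPJ, MAML1, STARD4, HMGCS1, NPC1, SCAP, BID, TNFRSF10A, CASP6, HMGA2, IGFBP2, IGFBP4, IGFBP6, IGFBP7, CXCL1, CXCL3 and CXCL8) after their values were seen. Alternatives were other pseudocounts, scalings, signal filters and probe set rules, fits without the trend or over bright probe sets alone, and leaving out each hairpin.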

Additional observations from a re-analysis of the deposited data

Results flagged for a closer look

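In 5 of the 54 genes the HepG2 ratio was at least 1.5-fold on the other side of 0 from both HeyA8 ratios. The difference between the cell lines was not tested for any of them. GREM1 had a log2 ratio of 1.32 in HepG2 against -1.06 and -1.21 in HeyA8, from signals of 2.84 and 25.9, and its other probe set gave -0.63 there. PTPRR was at 1.65 against -1.21 and -0.94, from signals of 9.26 and 55.8. IGFBP3 was at -1.64 against 1.20 and 0.69, from signals of 63.0 and 11.6. All of these signals are below or near the HepG2 array medians of 58.7 and 63.5. LRATD2 was at 0.73 against -1.01 and -1.10, from 219 and 373, below the signal of 400 used in HeyA8. GOLGA8N was at 0.64 against -0.79 and -0.69, from 656 and 1031, on a cross-hybridising probe set, and was the only one of the 5 above 400 in HepG2.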

How the results depend on the processing

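No paired analysis was possible because each group had 1 array and the labels carry no shared replicate numbers. The counts of 14 higher and 40 lower genes at 1.5-fold, and 1 and 9 at 2-fold, moved with the signal filter. Above 200 they were 27, 68 and 2 (higher at 2-fold), above 800 they were 8 and 25, and with no filter 886, 957, 359 and 346. The HepG2 counts (23 lower genes below 0 and 6 higher genes above 0) were then 36 and 13, 15 and 2, and 429 and 494. A pseudocount of 100 gave 8 higher genes, 4 lower at 2-fold and 3 higher genes above 0 in HepG2. Equal medians gave 26 higher genes and 12 above 0 in HepG2, where that scaling moved the median of all genes from -0.02 to -0.13. Leaving out a hairpin, so that the other alone decided, gave 53 to 129 higher and 118 to 212 lower genes, and 6 to 16 and 24 to 40 at 2-fold. With the mean of bright probe sets, ITGA2 turned to 0.20 with shRNA4. Past 1.5-fold under every alternative but leaving out a hairpin, removing the filter included, were 6 of the 14 higher and 17 of the 40 lower genes, and 7 and 24 where the filter of 800 is set aside too. FAS stayed between -1.03 and -0.78 with shRNA4 and between -1.61 and -1.21 with shRNA6 under each alternative. By limma 0 probe sets passed under each alternative, with 428 of 14123 bright probe sets (3.03%) and between 2154 and 3425 of all at an unadjusted p below 0.05. Other tools were not run. Detection calls were not used, so dim signals, such as MAML3 below 200 with both hairpins, have no stated background.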

Other observations

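INSIG1, lower with both hairpins in HeyA8, was hardly measured in HepG2, where its 3 probe sets were at no more than 17.6 on either array, beside 2263 to 6640 in the HeyA8 control. HeyA8 arrays also carried some transcripts listed as endothelial markers. TIE1, a receptor tyrosine kinase of vessels, stood at 2283 in the control, 2479 under shRNA4 and 2184 under shRNA6, and ENG, endoglin, at 1597, 2057 and 1516. CDH5, the endothelial cadherin, stood at 825, 543 and 677. In contrast PECAM1 was at no more than 97.8 and VWF at no more than 49.6, and in HepG2 TIE1 was at 32.8 and 6.25.

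Of 53 probe sets of the 54 genes that were not above 400, 10 lay on the other side of 0 from the reported one with both hairpins. They belonged to IGFBP1, SSBP4, SFT2D3, ABI3BP, PARD6B, ATP2B4, CRCP, KDM5B, THSD4 and LIFR. The largest differences were those of SFT2D3 (-1.25 and -2.12, from 70.9 in the control), ABI3BP (1.60 and 1.07, from 1.75) and ATP2B4 (1.36 and 2.25, from 5.50). The CRCP probe set was the brightest of the 10, at 187 in the control, and gave 0.18 and 0.02. A second dim ABI3BP probe set gave -1.54 and -0.92. EPCAM, an epithelial surface protein, lay on both sides of the control, at 405 in the control, 281 under shRNA4 and 619 under shRNA6.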
